A study of Mus musculus with 16 samples.

Results

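The proteasome genes described here are the 43 protein-coding genes whose symbols mark them as subunits, activators or cap chaperones of the proteasome: the Psma and Psmb series of the core, Psmc1 to Psmc6 and the Psmd series of the cap, and Psme1 to Psme4. They were taken by symbol alone from a count table of 27179 genes, though with earlier results of these data known. Of the 43, 41 had enough counts to be tested among 15516 genes. The other two, Psma8 and Psmb11, are the testis and thymus forms of core subunits and held 8 and 33 counts in all libraries together.

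The proteasome degrades ubiquitin-tagged proteins in a barrel of alpha and beta rings, closed at its ends by caps whose ATPases unfold the substrate and whose other subunits bind and remove ubiquitin. The beta subunits Psmb5, Psmb6 and Psmb7 carry the catalytic sites, and under interferon gamma they can be replaced by Psmb8, Psmb9 and Psmb10, which makes the immunoproteasome and changes the peptides offered to MHC class I. Interferon also raises Psme1 and Psme2, which together form an alternative cap. The transcription factor encoded by Nfe2l1 raises the genes of the constitutive particle when proteasome capacity falls short. Alveolar type 2 (AT2) cells make and secrete surfactant, and a misfolded surfactant protein C places a load on their protein quality control.

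RNA was sequenced from AT2 cells of 8 mice, sorted from digested lung after removal of leukocytes and endothelial cells. The gate took live Epcam+ CD200hi cells without CD45, CD31 or CD104, which were then split into CD44- and CD44+ cells, to compare the 2 sorts in fibrosis. The count table names its columns R26 (animals 8, 7, 2 and 1) and OG (animals 7, 6, 5 and 3), with both sorts from every animal, which gives 16 libraries in 4 groups of 4, each named by prefix and sort (R26 CD44-, for example). The labels give the genotypes SP-C WT and SP-C Mutant and the treatment OG TMX for all samples. They do not tie a column prefix to a genotype, so reading R26 as SP-C WT and OG as SP-C Mutant is an inference, and every OG against R26 value rests on the prefixes alone. The labels used here give neither the mutant allele's residue nor a recombinase, nor the animals' ages. Totals were 9022471 to 21363816 counts per library. All 12 AT2 markers examined (Sftpc, Sftpb, Lamp3 and others) were high enough to test, with summed levels of 150900 to 175600 CPM (counts scaled to library size) in R26 CD44-, 99160 to 141400 in R26 CD44+, 46680 to 49800 in OG CD44- and 22710 to 27220 in OG CD44+. All 12 were called lower in OG than in R26 in both sorts, and lower in CD44+ than in CD44- cells of both prefixes. All 7 AT1 markers were higher in OG than in R26 in CD44- cells, with sums of 3011 to 3376 CPM against 1134 to 1285. In CD44+ cells 5 were higher and 2 lower in OG (3081 to 3437 CPM against 1806 to 2173). Between the sorts, 6 were higher and 0 lower in R26 CD44+, and 4 higher and 1 lower in OG CD44+. All 8 fibroblast and mural markers were also higher in OG CD44- than in R26 CD44-, at 714 to 775 CPM against 99.5 to 129, and all 8 were higher in CD44+ than in CD44- cells of both prefixes (1584 to 2815 CPM in OG CD44+ and 695 to 1476 in R26 CD44+). In CD44+ cells 3 of these 8 were higher and 2 lower in OG than in R26. All 5 airway markers tested were higher in the CD44+ sort of both prefixes, with sums of 561 to 1181 CPM in R26 CD44-, 1795 to 3306 in R26 CD44+, 660 to 782 in OG CD44- and 1897 to 2613 in OG CD44+. The 7 endothelial markers tested were all lower in OG CD44+ (15.5 to 25 CPM) than in R26 CD44+ (88.7 to 105). R26 CD44+ was the highest of the 4 groups: all 7 were higher there than in R26 CD44- (20.3 to 32.2 CPM). In OG, 4 of the 7 were lower in CD44+ than in CD44- cells (27.6 to 33.0 CPM) and 0 higher. The part of these shifts in the proteasome values was not tested. In such bulk samples, a different mix of cells and a different amount of RNA per cell cannot be told apart.

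The promoters of 4 of the 6 catalytic subunits are shown because the constitutive and the interferon-inducible partners behaved differently in these data. They are the 250 bases before and 50 bases after the start in RefSeq's GRCm38.p6 annotation, printed 5′ to 3′ on the strand of the gene. Capitals mark the antioxidant response element core TGACNNNGC, which factors of the Nfe2l1 and Nfe2l2 family bind, in Psmb5 (chr14:54617946-54618245, minus strand) and Psmb6 (chr11:70525107-70525406, plus strand). In Psmb8 (chr17:34197945-34198244, plus strand) they mark the gamma-activated site TTCNNNGAA, which STAT factors bind, and in Psmb9 (chr17:34187281-34187580, minus strand) a CCAAT box on the opposite strand.
Psmb5: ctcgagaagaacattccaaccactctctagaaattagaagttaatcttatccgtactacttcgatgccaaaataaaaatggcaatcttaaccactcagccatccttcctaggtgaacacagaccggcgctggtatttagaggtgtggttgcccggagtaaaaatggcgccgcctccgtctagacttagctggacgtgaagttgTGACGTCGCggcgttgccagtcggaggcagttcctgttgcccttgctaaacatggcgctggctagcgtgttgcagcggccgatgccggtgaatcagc
Psmb6: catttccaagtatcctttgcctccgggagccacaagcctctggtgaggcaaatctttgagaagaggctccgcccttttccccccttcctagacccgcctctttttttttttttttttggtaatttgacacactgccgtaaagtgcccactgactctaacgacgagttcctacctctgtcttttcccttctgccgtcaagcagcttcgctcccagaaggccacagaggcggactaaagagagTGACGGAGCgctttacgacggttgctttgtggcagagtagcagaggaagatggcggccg
Psmb8: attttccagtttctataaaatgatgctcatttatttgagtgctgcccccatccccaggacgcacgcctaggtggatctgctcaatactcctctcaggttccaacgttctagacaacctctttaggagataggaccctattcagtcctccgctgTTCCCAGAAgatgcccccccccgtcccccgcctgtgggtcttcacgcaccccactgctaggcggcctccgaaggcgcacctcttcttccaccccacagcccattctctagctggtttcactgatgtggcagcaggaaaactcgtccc
Psmb9: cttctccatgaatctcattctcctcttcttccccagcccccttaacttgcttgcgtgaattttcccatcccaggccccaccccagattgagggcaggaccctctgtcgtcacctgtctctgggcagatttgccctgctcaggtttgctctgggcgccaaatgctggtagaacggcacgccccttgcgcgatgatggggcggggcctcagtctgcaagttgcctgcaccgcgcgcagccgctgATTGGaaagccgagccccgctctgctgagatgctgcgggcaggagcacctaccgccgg
The RefSeq table held promoters for 36 of the 43 genes, 39 promoters in all. With both strands searched, TGACNNNGC stood in 6 of them (15.4%; Psmb5, Psmb6, Psmc6, Psmd9, Psmd12 and Psme4) and in 12.4% of all 32851 promoters. TTCNNNGAA stood in 2 (5.1%; Psmb8 and Psmd2) against 8.3% of all. The core of the interferon-stimulated response element, GAAANNGAA, stood in 6 (15.4%; Psmb3, Psmb4, Psmc2, Psmd4, Psmd9 and Psme1) against 8.6%, and CCAAT in 14 (35.9%) against 37.4%. Matches of different motifs may share bases. The Psmb10 promoter in the table held none of the 4 and is not printed, and the table had no Psmb7 entry. These matches describe letters only.

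In OG cells nearly the whole particle was higher than in R26 cells. In CD44- cells 37 of the 41 genes were higher and 0 were lower, by edgeR's quasi-likelihood test at an adjusted p under 0.05, where 39.4% of all genes were called higher and 29.6% lower. In CD44+ cells 36 were higher and 0 lower, where 34.5% of all genes were called higher and 34.6% lower. The median log2 fold change of the 41 was 1.69 in CD44- and 1.29 in CD44+ cells, while that of all genes tested was 0.12 and -0.01. The lowest OG library exceeded the highest R26 library for 36 of the 41 genes in CD44- cells, where 38.6% of all genes did so, and for 36 in CD44+ cells, where 29.3% did. The 2 comparisons share no library, but they come from the same 8 animals and 1 joint fit, so neither is an independent repeat of the other. Each group also enters a CD44 comparison below. The genes that were not called in CD44- cells were Psmb9, Psmb10, Psme1 and Psme2, and Psmb8 joined them in CD44+ cells. These are the 5 interferon-inducible members.

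**Figure D1:**
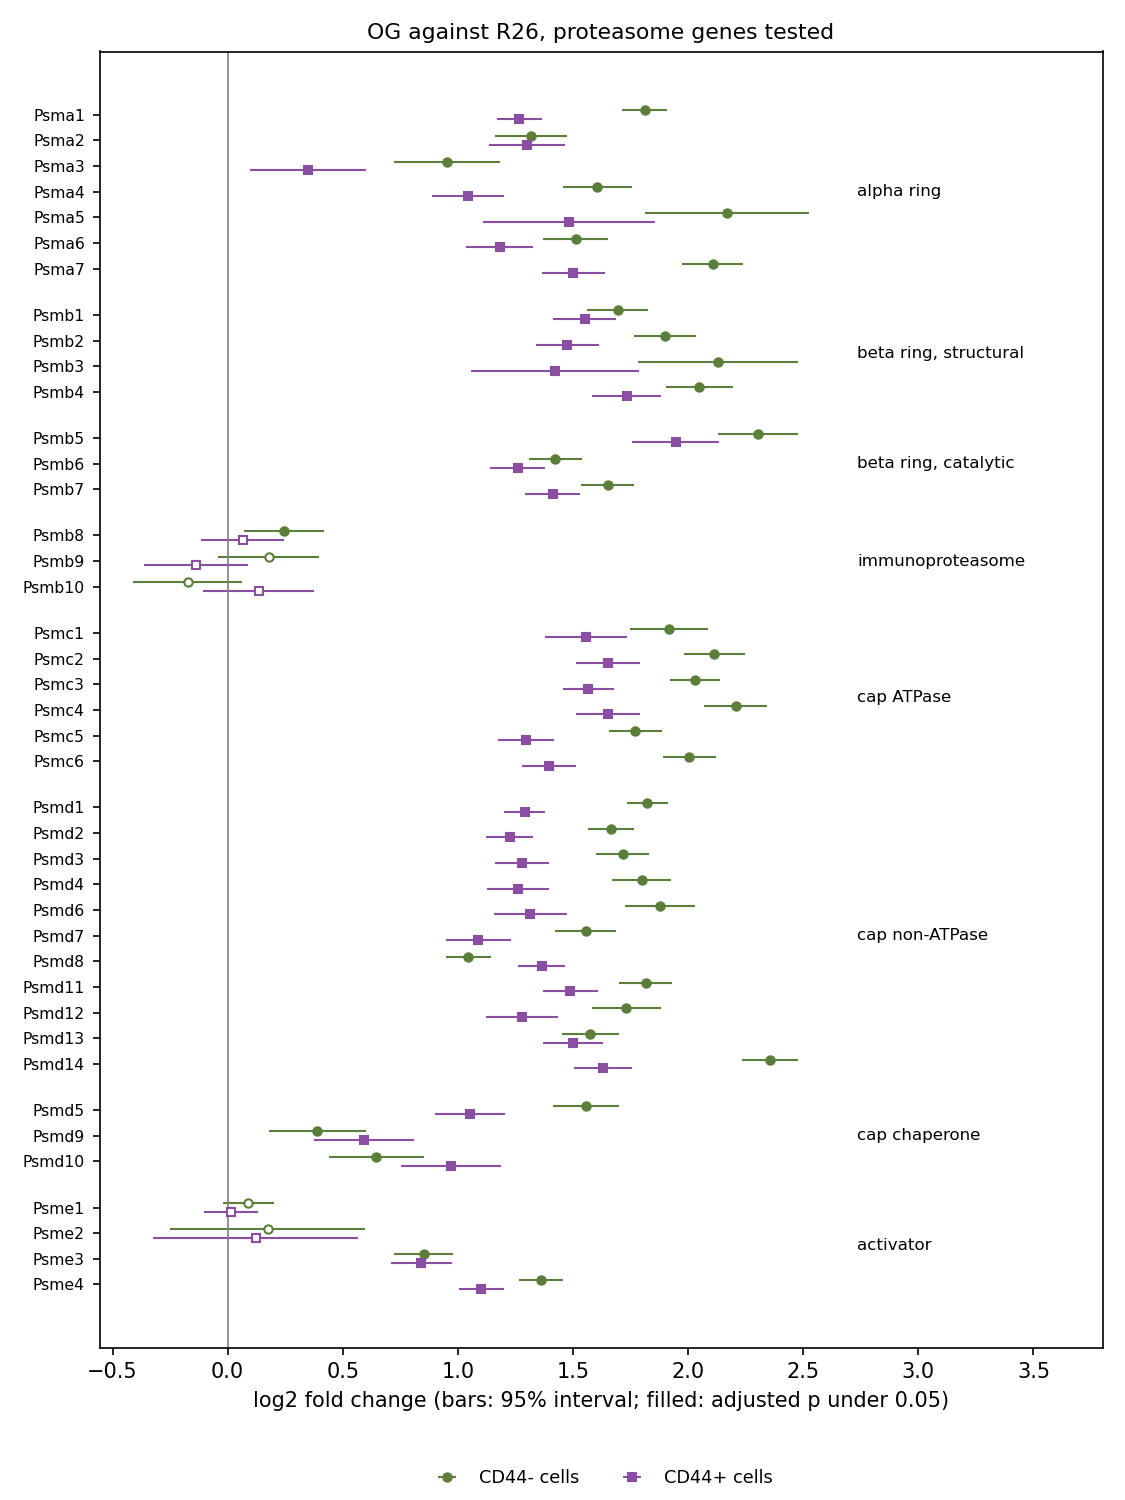
Log2 fold change of each of the 41 tested proteasome genes, OG against R26, in CD44- cells (circles) and CD44+ cells (squares), with 95% intervals. Filled points passed an adjusted p of 0.05, and the core and cap subunits lie to the right of 0, Psma3 in CD44+ cells nearest to it, while Psmb8, Psmb9, Psmb10, Psme1 and Psme2 lie near it.

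The 31 constitutive core and cap subunits (7 alpha, 4 structural beta, 3 catalytic beta, 6 ATPases and 11 other cap subunits) summed to 1060 to 1145 CPM in R26 CD44- libraries and to 3669 to 3840 CPM in OG CD44- libraries. They summed to 1066 to 1113 CPM in R26 CD44+ and to 2682 to 2940 CPM in OG CD44+. No library of one prefix entered the range of the other. All 31 were higher in OG in both sorts, with no overlap of the libraries for any of them. The median fold was 3.51 in CD44- cells, from 1.94 (Psma3) to 5.12 (Psmd14), and 2.63 in CD44+ cells, from 1.27 (Psma3) to 3.85 (Psmb5). The median fold in CD44- cells was 3.37 for the 14 core genes and 3.52 for the 17 cap genes. The median of all genes moved with the scaling, from 0.12 to 0.01 on the log2 scale in CD44- cells with TMM scaled to an OG CD44+ library, a shift smaller than any of these 31 changes.

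Among the 7 alpha subunits, which form the outer rings and gate the entry of substrates, Psma5, Psma7 and Psma1 differed most in CD44- cells. Psma7 stood at 34.1, 37.5, 41.5 and 38.4 CPM in R26 CD44- (animals 8, 7, 2 and 1) and at 161, 167, 167 and 156 CPM in OG CD44- (animals 7, 6, 5 and 3). Its log2 fold change was 2.11 ± 0.07 (SE; adjusted p = 1.97e-18), and every OG library was far above every R26 library. Psma1 changed by 1.81 ± 0.05 and Psma5 by 2.17 ± 0.18. Psma3 differed least, at 8.16 ± 0.888 CPM (SD, n = 4) in R26 CD44- and 15.97 ± 2.32 CPM in OG CD44-, a log2 fold change of 0.95 ± 0.12. In CD44+ cells its difference shrank to 0.35 ± 0.13 (adjusted p = 0.0195) and the call was kept in 23 of 28 alternatives. It was lost without R26 CD44+ animal 1 (0.28), with TMM scaled to an R26 CD44- library (0.27), with voom (0.34), with only the 8 libraries compared (0.33) and against a 1.5-fold minimum. The 4 structural beta subunits, the inner-ring subunits with no active site in the mature particle, changed by 1.69 (Psmb1) to 2.13 (Psmb3) in CD44- cells. Psmb4 rose from 50.7 ± 6.01 CPM in R26 CD44- to 209 ± 5.59 CPM in OG CD44-.

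Psmb5, which carries the chymotrypsin-like site, stood at 11.8, 11.7, 14.6 and 13.9 CPM in R26 CD44-, at 13.5, 9.69, 10.1 and 13.3 in R26 CD44+, at 65.5, 62.6, 67.3 and 60.6 in OG CD44- and at 45.0, 44.0, 48.5 and 42.4 in OG CD44+. The lowest OG library, at 42.4 CPM, was above the highest R26 library, at 14.6, and the OG CD44- libraries were above the OG CD44+ libraries without overlap. The log2 fold change of OG against R26 was 2.30 ± 0.09 in CD44- cells (adjusted p = 6.4e-17) and 1.95 ± 0.10 in CD44+ cells (adjusted p = 7.5e-15). Psmb6, with the caspase-like site, changed by 1.42 ± 0.06 and 1.26 ± 0.06, from 43.5 ± 1.87 to 117 ± 4.82 CPM in CD44- cells. Psmb7, with the trypsin-like site, changed by 1.65 ± 0.06 and 1.41 ± 0.06, from 37.5 ± 1.82 to 118 ± 2.88 CPM in CD44- cells.

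The caps followed the core. All 6 ATPases, which form the ring that unfolds substrates, were higher in OG CD44- by 1.77 (Psmc5) to 2.21 (Psmc4) on the log2 scale. Psmc4 stood at 34.9, 38.8, 36.0 and 39.2 CPM in R26 CD44- and at 177, 173, 169 and 167 CPM in OG CD44-. Psmc2 and Psmc3 changed by 2.11 ± 0.07 and 2.03 ± 0.06. Of the 11 other cap subunits, Psmd14, the protease that cuts ubiquitin chains from the substrate, differed most of all 41 genes in CD44- cells. It stood at 20.3, 24.0, 21.8 and 22.9 CPM in R26 CD44-, at 27.7, 26.1, 21.9 and 26.3 in R26 CD44+, at 113, 115, 118 and 111 in OG CD44- and at 79.7, 77.3, 81.1 and 78.5 in OG CD44+. The 4 groups fell in a clear order except that R26 CD44- and R26 CD44+ overlapped. Its log2 fold change was 2.36 ± 0.06 (adjusted p = 5.13e-20) in CD44- and 1.63 ± 0.06 (adjusted p = 1.07e-16) in CD44+ cells. Psmd6 and Psmd1, a lid and a base subunit, changed by 1.88 ± 0.08 and 1.82 ± 0.05 in CD44- cells. Psmd8, a lid subunit, changed least of the cap subunits in CD44- cells, at 1.04 ± 0.05, but not in CD44+ cells, at 1.36 ± 0.05.

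The 3 cap chaperones, which escort the ATPases during assembly and leave before the cap is complete, differed from one another. Psmd5 was higher in OG CD44- by 1.56 ± 0.07 and in OG CD44+ by 1.05 ± 0.08. Psmd10 was higher by 0.65 ± 0.10 and 0.97 ± 0.11, and Psmd9 by 0.39 ± 0.11 (adjusted p = 0.00258) and 0.59 ± 0.11. The Psmd9 call in CD44- cells was lost without R26 CD44- animal 8 (0.25) or animal 7 (0.25). Psmd9 was the member with the smallest called difference outside the interferon-inducible genes in CD44- cells, at 13.8 ± 1.08 CPM in R26 and 18.1 ± 1.02 CPM in OG.

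The activators divided in the same way. Psme4, the large single-chain activator, stood at 128, 135, 125 and 130 CPM in R26 CD44- and at 327, 338, 340 and 324 CPM in OG CD44-, a log2 fold change of 1.36 ± 0.05 (adjusted p = 1.6e-17). In CD44+ cells it changed by 1.10 ± 0.05. Psme3, the nuclear activator, changed by 0.85 ± 0.07 and 0.84 ± 0.07. Psme1 stood at 92.6, 104, 96.5 and 97.8 CPM in R26 CD44-, at 81.6, 84.3, 97.5 and 84.5 in R26 CD44+, at 102, 111, 97.9 and 105 in OG CD44- and at 90.6, 90.6, 88.0 and 81.8 in OG CD44+. OG and R26 libraries overlapped in both sorts. Its log2 fold change was 0.09 in CD44- cells (95% interval -0.02 to 0.20) and 0.02 ± 0.06 in CD44+ cells, and its sign changed under other scalings. Psme2 stood at 2.51 ± 0.394 CPM in R26 CD44- and 2.85 ± 0.0187 CPM in OG CD44-, with an interval of -0.25 to 0.60.

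**Figure D2:**
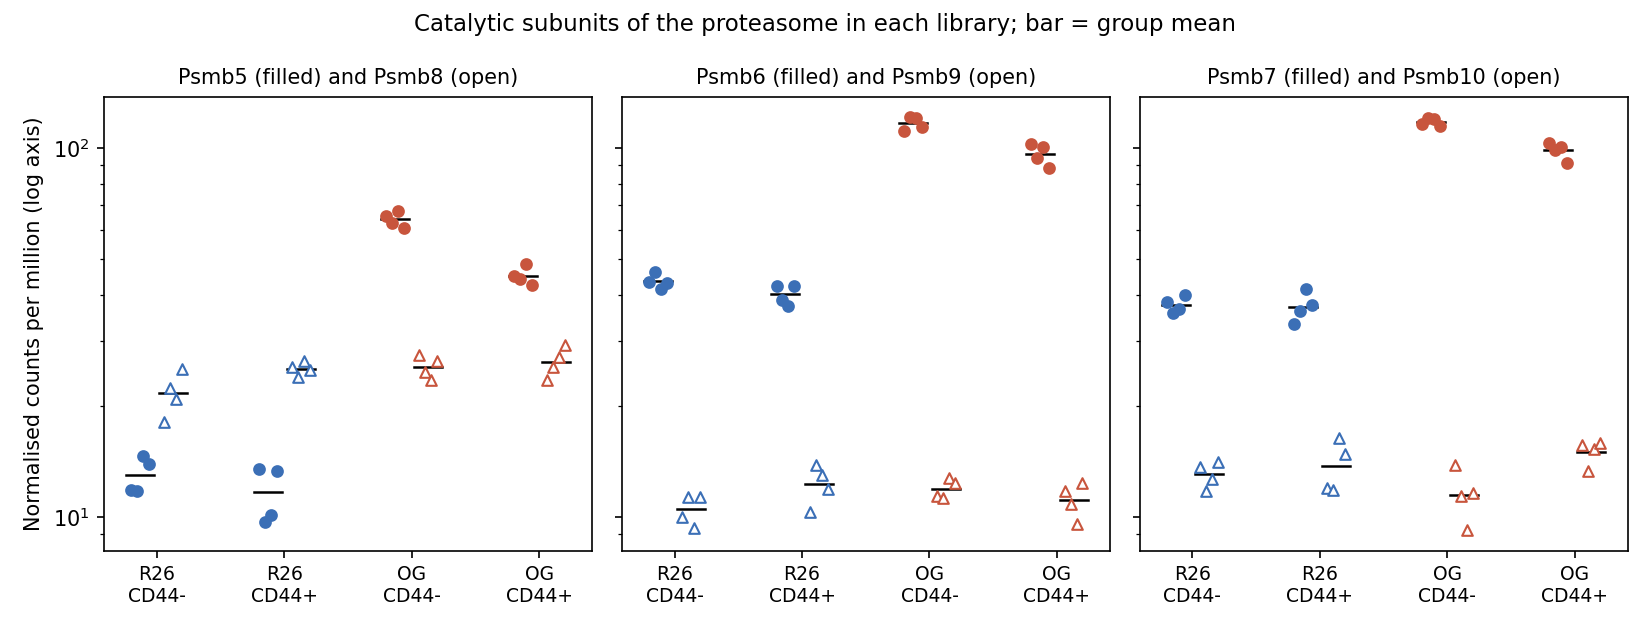
Normalised CPM on a log axis for each constitutive catalytic subunit (filled circles) and its immunoproteasome counterpart (open triangles), 4 libraries per group with a bar at the mean. Psmb5, Psmb6 and Psmb7 step up from R26 (blue) to OG (red), while Psmb8, Psmb9 and Psmb10 stay between 9.19 and 29.3 CPM in all 16 libraries.

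The immunoproteasome subunits did not follow their constitutive counterparts. Psmb8 stood at 18.1, 22.4, 20.8 and 25.2 CPM in R26 CD44-, at 25.5, 23.9, 26.4 and 25 in R26 CD44+, at 27.4, 24.7, 23.5 and 26.5 in OG CD44- and at 23.6, 25.5, 27.1 and 29.3 in OG CD44+. All groups overlapped. It was called higher in OG CD44- (0.24 ± 0.09, adjusted p = 0.0186), but 16 of 28 alternatives lost that call, among them 4 of 5 other scalings. It was lost without R26 CD44- animal 8 (0.06), 7 (0.16) or 2 (0.12), without any single R26 CD44+ library (0.14 each) and without OG CD44- animal 7 (0.21). R26 CD44+ libraries stand on neither side of this comparison, but the TMM reference was chosen anew in each fit. Without any 1 R26 library the median of all genes was 0.00 to 0.01, against 0.12 in the main fit. In CD44+ cells the Psmb8 difference was 0.07 (95% interval -0.11 to 0.25). Psmb9 stood at 10.01, 11.3, 9.33 and 11.3 CPM in R26 CD44- and at 11.4, 11.3, 12.7 and 12.3 in OG CD44-, and at 12.2 ± 1.53 and 11.1 ± 1.21 CPM in the CD44+ sorts. Its log2 fold change was 0.18 (-0.04 to 0.40) in CD44- and -0.14 (-0.37 to 0.09) in CD44+ cells. Psmb10 stood at 13.6, 11.7, 12.7 and 14.1 CPM in R26 CD44- and at 13.8, 11.4, 9.19 and 11.6 in OG CD44-. Its log2 fold change there was -0.17 (-0.41 to 0.06), called lower in 7 of 28 alternatives, and in CD44+ cells it was 0.13 (-0.11 to 0.38). The upper ends of these intervals are below the lower ends for Psmb5, Psmb6 and Psmb7, the lowest of which is 1.14. Leukocytes are rich in immunoproteasome. Of 12 leukocyte markers 11 could be tested, of which 6 were higher and 1 lower in OG CD44- than in R26 CD44- (39.4% and 29.6% of all genes). The one that was lower was Lcp1, which held most of the summed level: the 12 summed to 266 to 301 CPM in R26 CD44-, 265 to 360 in R26 CD44+, 136 to 149 in OG CD44- and 135 to 169 in OG CD44+. Without Lcp1, a sum taken after the values were seen, the other 11 gave 9.24 to 12.4 CPM in R26 CD44-, where Tyrobp was at 0 in every library, 51.5 to 91.1 in R26 CD44+, 17.4 to 21.2 in OG CD44- and 35.1 to 62.4 in OG CD44+. Ptprc, the gene of CD45, stood at 0.164 ± 0.0280 CPM (SD, n = 4) in R26 CD44- and at 1.21 ± 0.329 CPM in OG CD44-. The part of leukocyte RNA in the Psmb8, Psmb9 and Psmb10 values was not tested.

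The balance within each catalytic pair was measured as the share of the immunoproteasome partner in the reads of the pair, per kb of exon. Psmb8 made up 30.7% ± 2.90 (SD, n = 4) of Psmb8 and Psmb5 in R26 CD44-, 36.9% ± 4.00 in R26 CD44+, 9.60% ± 0.820 in OG CD44- and 13.5% ± 1.42 in OG CD44+. Psmb9 made up 10.99% ± 0.680 of its pair with Psmb6 in R26 CD44-, 13.6% ± 2.11 in R26 CD44+, 4.97% ± 0.310 in OG CD44- and 5.62% ± 0.840 in OG CD44+. Psmb10 made up 41.0% ± 0.930 of its pair with Psmb7 in R26 CD44-, 42.5% ± 2.17 in R26 CD44+, 16.3% ± 2.44 in OG CD44- and 23.4% ± 1.89 in OG CD44+. Every OG library was below every R26 library for all 3 pairs in both sorts. Each of these 6 differences gave p = 0.0286 in an exact two-sided permutation test, the smallest that 4 against 4 libraries allow, and an adjusted p of 0.0429 over the 12 comparisons made. Between the sorts of OG, the Psmb8 share was 3.89 points and the Psmb10 share 7.10 points higher in CD44+ cells, each with no overlap and an exact permutation p of 0.0286 (adjusted 0.0429). Psmb8 itself was not called between these sorts (log2 fold change 0.04), while its partner Psmb5 was lower (-0.51). Psmb10 was higher (0.38) and its partner Psmb7 lower (-0.26). The Psmb9 share differed by 0.649 points (exact permutation p = 0.229). Between the sorts of R26 the differences of 6.20, 2.57 and 1.51 points did not pass, with exact permutation p-values of 0.0857, 0.0857 and 0.200. The tests between sorts treated the libraries as independent, although both sorts came from the same animals. A paired sign-flip test over 4 animals allows no p below 0.125, so it could not call any of these differences. These shares depend on the length assigned to each gene: with the principal transcript in place of all exons, the Psmb8 share was 47.8% in R26 CD44-, 54.7% in R26 CD44+ and 18.1% in OG CD44-, and the Psmb10 share 23.5% in R26 CD44- and 7.94% in OG CD44-. With the coding length the Psmb8 share was 61.3% in R26 CD44-, 67.6% in R26 CD44+ and 27.6% in OG CD44-, and with no length correction 62.3%, 68.5% and 28.5%. No call changed with the length, but the levels of all 3 shares did. The Psmb9 share in R26 CD44- went from 10.99% to 20.8% with the coding length. Which of Psmb8 and Psmb5 was the more abundant in either R26 sort also depended on the length. The level of Psmb5 is itself uncertain, because its coding sequence also occurs in another annotated gene.

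**Figure D3:**
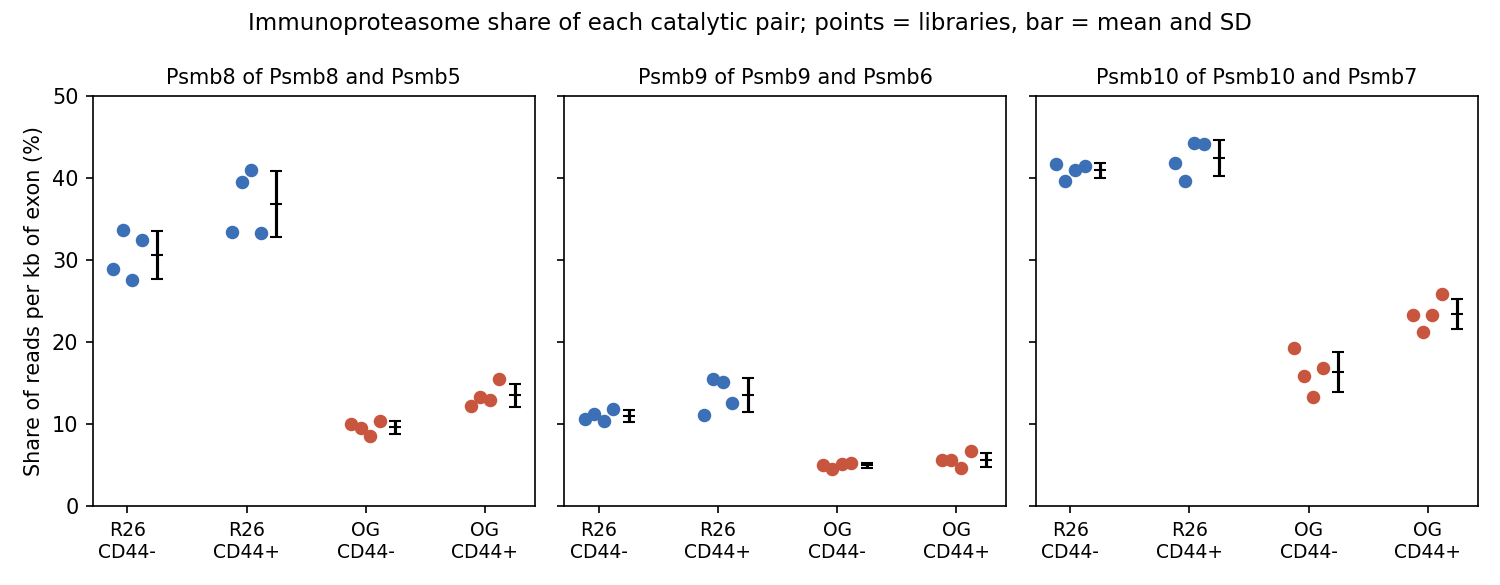
Share of Psmb8, Psmb9 and Psmb10 in the reads per kb of exon of each catalytic pair, in percent, 1 point per library with the mean and SD beside them. All OG points (red) lie below all R26 points (blue) of the same sort in each panel.

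Within OG, the particle was lower in CD44+ than in CD44- cells. Of the 41 genes 31 were lower and 2 higher, where 28.0% of all genes were called lower and 22.3% higher, and the median log2 fold change was -0.43 against -0.06 for all genes. The OG CD44+ libraries lay wholly below the OG CD44- libraries for 30 of the 41, as they did for 28.4% of all genes. The differences were modest: none of the 41 passed a test against a 1.5-fold minimum. Within R26 the sorts hardly differed, with 1 gene higher and 2 lower of the 41, where 21.6% of all genes were called higher and 15.4% lower, and a median of 0.00 against -0.02. With TMM scaled to an OG CD44- library these R26 counts became 0 higher and 11 lower, and the counts over all genes turned from 3357 higher and 2393 lower to 2979 and 4824. Without 1 R26 library the lower count in R26 ran from 4 (without R26 CD44- animal 1) to 10 (without R26 CD44+ animal 2). The scaling moved in these fits too, with a median of all genes of -0.09 to -0.08.

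Of the constitutive subunits 28 of 31 were lower in OG CD44+. The alpha subunits led, with Psma3 lower by 0.66 ± 0.12, Psma7 by 0.57 ± 0.06 and Psma4 by 0.55 ± 0.07, and only Psma2 among them was not called (-0.15 ± 0.07, adjusted p = 0.105). The Psma5 call (-0.44 ± 0.16, adjusted p = 0.0257) was kept in 17 of 29 alternatives. It was lost with TMM scaled to either OG library (-0.38 and -0.39), against the 1.5-fold minimum, without both libraries of OG animal 3, and on leaving out R26 CD44- animal 8, 7 or 1, OG CD44- animal 7, 6 or 5, or OG CD44+ animal 5 or 3 (-0.39 to -0.44). Leaving out any 1 R26 library, on neither side here, moved the median of all genes from -0.0555 to between -0.0045 and -0.0035. All 4 structural beta subunits and all 6 ATPases were lower, the beta subunits by 0.32 (Psmb1) to 0.49 (Psmb3) and the ATPases by 0.35 (Psmc1) to 0.49 (Psmc6). Psmb5 was lower by 0.51 ± 0.08 (adjusted p = 1.25e-05), Psmb6 by 0.28 ± 0.06 and Psmb7 by 0.26 ± 0.06. Among the other cap subunits Psmd12 (-0.55 ± 0.07), Psmd6 (-0.55 ± 0.07) and Psmd1 (-0.54 ± 0.04) were lower by most, and Psmd13 was not called (-0.14 ± 0.06, adjusted p = 0.0521). The chaperone Psmd5 was lower by 0.64 ± 0.07, while Psmd9 and Psmd10 were not called at 0.17 ± 0.10 and 0.16 ± 0.10. Psme4 was lower by 0.23 ± 0.05 and Psme1 by 0.25 ± 0.06 (adjusted p = 0.00108), and Psme2 and Psme3 were not called.

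The 2 genes higher in OG CD44+ were Psmb10 and Psmd8. Psmb10 stood at 13.8, 11.4, 9.19 and 11.6 CPM in OG CD44- and at 15.7, 13.3, 15.2 and 15.9 CPM in OG CD44+. The libraries overlapped by a single value, and the log2 fold change was 0.38 ± 0.12 (adjusted p = 0.0107). It was not called without OG CD44- animal 5 (0.29) or without both libraries of OG animal 3 (0.35). Psmb8 and Psmb9 gave 0.04 ± 0.09 and -0.10 ± 0.11, and neither passed. Plasma cells and other leukocytes also carry immunoproteasome: 5 of 6 plasma cell markers were higher in OG CD44+, with sums of 1524 to 4122 CPM against 211 to 284 in OG CD44-, and the same 5 of 6 count was found in R26 (1737 to 3970 against 203 to 236). Of all genes 22.3% were higher and 28.0% lower within OG, and 21.6% and 15.4% within R26. Single libraries set the upper ends. Igha stood at 2030 CPM in OG CD44+ animal 3 (others 632.3 to 732.5) and at 1857 in R26 CD44+ animal 2 (others 857.4 to 1146). The median sums were 1606 and 2126 CPM. Of the 11 leukocyte markers tested, 8 were higher and 1 lower in OG CD44+ than in OG CD44- (median log2 fold change 1.81), and 10 were higher and 1 lower in R26 CD44+ than in R26 CD44- (median 3.53), with Lcp1 the lower one in each. Their part in the Psmb10 value was not tested.

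Of the 17 cap subunits 15 were lower in OG CD44+, and Psmd8 was the only 1 called higher (28.0% and 22.3% of all genes). It was not alone in direction among genes of the cap. The chaperones Psmd9 and Psmd10 had positive values that were not called (0.17 and 0.16). The associated protein Sem1 was called higher (0.28). Psmd8 stood at 89.7, 88.8, 95.8 and 92.1 CPM in R26 CD44-, at 81.0, 74.0, 85.6 and 78.5 in R26 CD44+, at 193, 194, 189 and 180 in OG CD44- and at 203, 207, 218 and 192 in OG CD44+. In R26 the CD44+ libraries lay wholly below the CD44- libraries, and in OG they lay mostly above. It was lower in R26 CD44+ by 0.20 ± 0.05 (adjusted p = 0.00373) and higher in OG CD44+ by 0.12 ± 0.05 (adjusted p = 0.0465). The second call was lost in 11 of 29 alternatives, among them the fits without each OG CD44- animal in turn (0.09 to 0.13) and without OG CD44+ animal 7, 6 or 5. The other called genes in R26 were Psmd14, higher by 0.20 ± 0.07 (adjusted p = 0.0243), and Psme1, lower by 0.17 ± 0.06 (adjusted p = 0.0253). The Psmd14 call was kept in 15 of 29 alternatives. It was lost on leaving out any single R26 library other than R26 CD44+ animal 2, with values of 0.09 (without R26 CD44- or CD44+ animal 8) to 0.17 (without R26 CD44- animal 7).

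**Figure D4:**
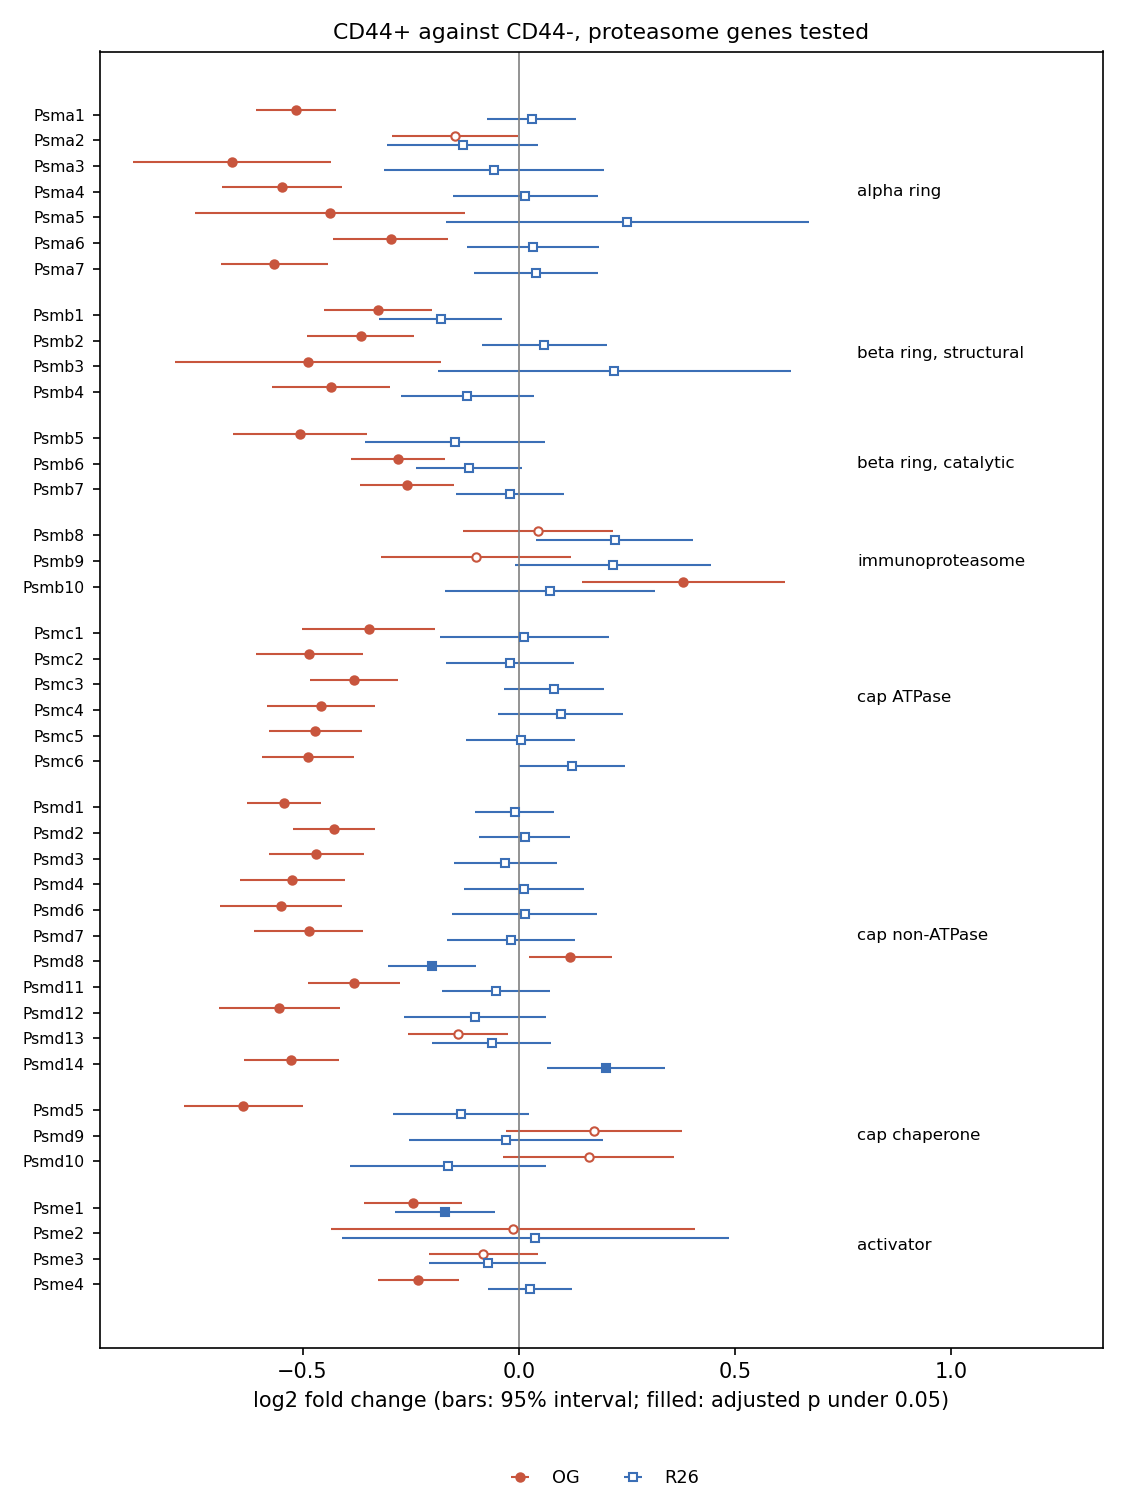
Log2 fold change of CD44+ against CD44- cells for the 41 tested proteasome genes in OG (circles) and R26 (squares), with 95% intervals. Filled points passed an adjusted p of 0.05: most core and cap genes lie left of 0 in OG and near 0 in R26, and Psmd8 lies right of 0 in OG and left of it in R26.

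Whether the CD44 difference itself differed between OG and R26 was tested as an interaction, the OG difference minus the R26 difference. It was negative for 26 of the 41 genes and positive for 1, where 18.1% of all genes were called negative and 6.57% positive. The median over the 41 was -0.43 against -0.10 for all genes. With TMM scaled to an OG CD44- library the counts were 18 and 2 for the 41 and moved from 2806 and 1019 to 1697 and 2369 over all genes, so the split over all genes turned while that of the proteasome genes did not. Without R26 CD44- animal 2 or 1, or R26 CD44+ animal 7, the negative count was 17. Leaving out any 1 R26 library also moved the median of all genes, from -0.10 to between 0.02 and 0.03. The most negative values were those of Psmd14 (-0.73 ± 0.09, adjusted p = 1.85e-06) and Psmb3 (-0.71 ± 0.26, adjusted p = 0.05, kept in 4 of 28 alternatives), and the positive one was Psmd8 (0.32 ± 0.07, adjusted p = 0.00193). All 6 ATPases were called, from -0.61 (Psmc6) to -0.36 (Psmc1). The Psmc1 call was kept in only 9 of 28 alternatives. It was lost on leaving out any single R26 library, OG CD44- animal 7 or 5, or OG CD44+ animal 3 (-0.18 to -0.35), and with TMM scaled to an OG CD44- library (-0.21). Psmb5 and Psmb6 were not, at -0.36 ± 0.13 (adjusted p = 0.0515) and -0.16 ± 0.08. None of the 5 interferon-inducible members was called.

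Most genes that work with the proteasome were also higher in OG. Of 17 assembly factors and associated proteins tested, 14 were higher and 1 lower in OG CD44- (39.4% and 29.6% of all genes). In OG CD44+ 11 were higher and 0 lower (34.5% and 34.6% of all genes). Usp14, a deubiquitinase on the cap, was higher by 1.98 ± 0.05 in CD44- cells, Zfand2a, an arsenite-inducible proteasome adaptor, by 2.76 ± 0.08, and Pomp, the maturation factor of the core, by 1.52 ± 0.06. Zfand6 was the one lower, by 0.18 ± 0.05. Of 16 genes of ubiquitin and of the shuttles that bring substrates, 13 were higher in OG CD44- and 14 in OG CD44+, where 39.4% and 34.5% of all genes were higher. In CD44- cells Nploc4 stood at 1.82 ± 0.05, Vcp, the segregase, at 1.23 ± 0.05, and the polyubiquitin gene Ubb at 1.25 ± 0.06. Within OG, 12 of the 17 and 11 of the 16 were lower in CD44+ cells, with Sem1 (0.28 ± 0.11) and Uba1 (0.13 ± 0.06) higher. Of all genes 28.0% were lower there and 22.3% higher. Under 5 other scalings the higher counts in CD44- cells stayed at 14 and 13, and the lower counts at 1 and at 0 to 1.

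The regulators on either side were less uniform. Of 11 genes around Nfe2l1 and Nfe2l2, 3 were higher and 2 lower in OG CD44- than in R26 CD44-, shares below the 39.4% and 29.6% of all genes. Between OG CD44+ and R26 CD44+ 3 were higher and 6 lower, where the shares of all genes were 34.5% and 34.6%. Nfe2l1 itself was higher by 0.45 ± 0.04 in CD44- and by 0.17 ± 0.04 in CD44+ cells, Mafg by 1.08 ± 0.09 and Keap1, which holds Nfe2l2 for degradation, by 0.996 ± 0.05 in CD44- cells, while Maff (-0.40 ± 0.09) and Fbxw7 (-0.41 ± 0.09) were lower. Nfe2l2 was not called, at 0.04 ± 0.05. In OG CD44+ cells 7 of the 11 were lower than in OG CD44-, Nfe2l1 among them (-0.33 ± 0.04), where 28.0% of all genes were lower. Of 20 genes of interferon signalling, 3 were higher and 10 lower in OG CD44-, where 39.4% of all genes were higher and 29.6% lower. In OG CD44+ 3 were higher and 12 lower, where the shares of all genes were 34.5% and 34.6%. Socs3 (-2.11 ± 0.06), Irf1 (-1.62 ± 0.13) and Stat2 (-1.22 ± 0.09) were lower in OG CD44-, and Ifngr2 (1.32 ± 0.09), Gbp2 (0.79 ± 0.15) and Ifnar1 (0.50 ± 0.05) were higher. Within OG, 8 of the 20 were higher and 5 lower in CD44+ cells, where 22.3% of all genes were higher and 28.0% lower, with Gbp2 at 1.35 ± 0.13. Of 13 genes that trim and load peptides on MHC class I, the users of proteasome products, 10 were higher and 0 lower in OG CD44- and 9 were higher in OG CD44+, among them Pdia3 (0.70 ± 0.04 in CD44- cells) and Tapbp (0.87 ± 0.06). The shares of all genes called higher were 39.4% and 34.5%.

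For some members the counts themselves are uncertain, because their coding sequence also occurs in another annotated gene. Matches of at least 75 bases at 97% identity covered 100% of the coding sequence of Psma5, Psmb3, Psmb5, Psmd11 and Psme2, 86.5% of Psma3 and 55.2% of Psmc1. They covered 31.6% of Psmb7, 15% of Psmb8 and 10.2% of Psmd1, and none of the other 33. Reads of the first 7 may have been split or dropped, depending on how the authors counted. Per kb of principal transcript and summed over all libraries, Psma5, Psmb3, Psma3 and Psme2 held 918, 1864, 820 and 607 counts. The other shared genes Psmb5, Psmd11 and Psmc1 held 8641, 5428 and 4094. Among genes with no shared sequence, Psma7 and Psmb4 held 22120 and 22463, the most of their rings, and Psme1 held 18400. Psma4, Psma2 and Psmb9, also without shared sequence, held 5470, 2854 and 1805. The part of shared sequence in these levels was not tested. The gene that shares the coding sequence of Psme2 is Psme2b.

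Psma8 and Psmb11 were below the filter. Psma8 was at 0 in all but 2 OG CD44+ libraries, those of animals 5 and 3, at 0.28 and 0.33 CPM. Psmb11 stood at 0.26, 0.13, 0.08 and 0.48 CPM in R26 CD44- and at 0.07, 0, 0 and 0.06 CPM in OG CD44-, a level of few counts at which no comparison was made.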

How the data were processed

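RNA of 16 libraries was sequenced after stranded total RNA preparation with removal of ribosomal RNA, per the labels' protocols. The authors deposited 1 table of raw read counts per gene for all libraries. Per the submitters' processing notes, Bowtie2 and mm10 were used; the counting program, annotation and strand setting are not given in the sources used here. Of 27179 identifiers, 25275 (93.0%) matched a symbol. Columns were mapped to groups by the prefix and CD44 sign in their names. Totals of 9022471 to 21363816 counts set the precision.

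The 15516 genes that passed edgeR's filter on low counts were fitted together over the 4 groups with TMM scaling and edgeR 4.0.16's quasi-likelihood test (R 4.3.3), with Benjamini-Hochberg adjustment over all of them and a threshold of 0.05. CPM are counts divided by the TMM-scaled library size. Intervals are at 95%. The edgeR p-values set each difference of group means against the spread between libraries, and the main fit leaves out the pairing of the sorts. Shares were compared by exact two-sided permutation (scipy 1.17.1). Shared coding sequence was sought with BLAST+ 2.17.0. The edgeR test was run on simulated independent libraries with a small set of changed genes, as many up as down. These data hold paired sorts and far more called genes, which that simulation did not cover.

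Columns with the same prefix and number come from 1 animal, by the column names, so the 2 sorts are paired. Deviations of such pairs correlated at 0.240, 0.221, 0.178 and 0.126 in R26 and at 0.052, 0.020, 0.029 and 0.097 in OG.

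Named with values were the interferon-inducible genes and their partners, up to 3 called members of largest change per role and comparison, up to 2 in the minority direction, members not tested, and up to 4 genes of smallest adjusted p per pathway list with its exceptions. Other members named beside them, such as those not called, were chosen after their values were seen. Members and lists were chosen with earlier results of these data known. Alternatives were other scalings, filters, tools (DESeq2 1.42.0, limma 3.58.1), a fold minimum, the replicate block and leaving out each library. Fits that left out libraries chose the TMM reference anew, so the scaling could change along with the libraries.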

Additional observations from a re-analysis of the deposited data

Results flagged for a closer look

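Of 176 groups of 4 libraries examined (the 41 tested genes and the 3 catalytic shares, each in 4 groups), 6 held a library whose gap to the nearest other was above Dixon's 95% critical share of the group's range, and chance gives about 1 in 20. Psmb1 stood at 50.8 CPM in R26 CD44- animal 1, where the others were at 44.0 to 45.1. Psmc3 stood at 48.3 CPM in the same library, against 42.9 to 43.6. Psmc1 stood at 33.4 CPM in OG CD44+ animal 3 (others 39.9 to 40.9), and Psmd6 at 90.3 CPM in OG CD44- animal 3 (others 94.4 to 94.5). Psmd9 stood at 17.8 CPM in R26 CD44+ animal 2 (others 11.9 to 12.6), and Psme2 at 3.10 CPM in R26 CD44- animal 8 (others 2.25 to 2.37).

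The CD44 difference differed between OG and R26, by edgeR's interaction test, for 27 genes, with log2 values of the OG difference minus the R26 difference. In the alpha ring they were Psma1 (-0.54), Psma3 (-0.61), Psma4 (-0.56), Psma6 (-0.33) and Psma7 (-0.605). Among beta subunits they were Psmb2 (-0.43), Psmb3 (-0.71), Psmb4 (-0.32) and Psmb7 (-0.24). The ATPases were Psmc1 (-0.36), Psmc2 (-0.46), Psmc3 (-0.46), Psmc4 (-0.55), Psmc5 (-0.48) and Psmc6 (-0.61). The other cap subunits were Psmd1 (-0.53), Psmd2 (-0.44), Psmd3 (-0.44), Psmd4 (-0.54), Psmd6 (-0.56), Psmd7 (-0.47), Psmd8 (0.32), Psmd11 (-0.33), Psmd12 (-0.45) and Psmd14 (-0.73). The chaperone Psmd5 (-0.50) and the activator Psme4 (-0.26) were the others. Several of these calls were unstable: of 28 alternatives, Psmb3 kept its call in 4, Psmb7 in 6 (values from -0.26 to -0.06), Psmb4 in 9 (-0.36 to -0.13) and Psmc1 in 9 (-0.39 to -0.18). Psma6 kept it in 16, Psme4 in 17, Psmd11 in 19, Psma3 in 21 and Psmd12 in 22. The other 18 each kept it in 27 of 28. Without R26 CD44- animal 2 or 1, or R26 CD44+ animal 7, 17 negative calls were left.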

How the results depend on the processing

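No called member changed sign, and all 31 core and cap genes stayed higher in OG CD44- in 28 of 28 alternatives. Members not called did change sign. For OG against R26 these were Psme1 in 10 of 28 alternatives in CD44- (-0.04 to 0.15) and 2 in CD44+, and in CD44+ also Psmb8 in 1 and Psme2 in 3 of 27. Within OG they were Psmb8 in 1 and Psme2 in 16 of 28. Many members changed sign within R26, Psmc5 most often, in 13 of 29. Several did in the interaction, most often Psme3 in 18 and Psma2 in 17 of 28. Within OG, 2 genes higher became 1 with TMM scaled to an R26 CD44+ library, 4 with only the 8 libraries compared, 0 without OG animal 3 (chosen after seeing the data) and 0 with a 1.5-fold minimum, which also left 0 lower. Within R26, 1 higher became 0 with DESeq2's size factors, with either OG library as TMM reference, with DESeq2's Wald test, voom, only the 8 libraries or the 1.5-fold minimum, and 2 with a minimum of 50 counts in 4 libraries. The 2 lower in R26 became 4 with DESeq2's size factors or Wald test, 11 and 6 with OG CD44- and OG CD44+ references, 1 with 50 counts or only the 8 libraries, and 0 with the fold minimum. In OG against R26 in CD44- cells 0 lower became 1 with the OG CD44+ reference, no filter or only the 8 libraries. The interaction gave 2 positive with either OG reference, and 0 positive and 0 negative with the fold minimum. With the replicate block the counts were 2 higher and 32 lower in OG, 2 and 3 in R26, and 1 and 27 in the interaction. Leaving out 1 library gave 0 to 3 higher and 29 to 32 lower in OG, 0 to 1 and 2 to 10 in R26, 35 to 37 and 0 to 1 for OG against R26 in CD44-, 35 to 36 and 0 in CD44+, and 1 to 4 and 17 to 25 in the interaction. Leaving out an R26 library changed the scaling as well. For OG against R26 in CD44- cells the median of all genes was then 0.00 to 0.01. Without any 1 OG library it was 0.11 to 0.12, as in the main fit (0.12). Losses of calls without different R26 libraries are thus not separate signs of dependence on single animals. The cause of these shifts was not tested. Depth limits Psme2, with 584 counts in all libraries against 20461 for Psme1. For the shares, leaving out a library allows no exact p below 0.0571, and 4 pairs none below 0.125.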
